A study of Mus musculus with 9 samples.

Results

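The kinesin motor genes were followed in murine MLL-AF9 leukaemia cells after knockdown of the RNA-binding protein SYNCRIP. Members were chosen by symbol alone: all rows named Kif, a number and at most one of the letters a to c. This rule found 37 of the 38926 symbols in the count tables. No measured value enters it, but the family itself was picked with fold changes of these libraries already known, so the counts of members below describe these libraries and support no further statement. By their textbook roles, 13 members were placed with the mitotic kinesins, 12 with transport, 9 with cilia and 3 with none of these. Counts were high enough for testing for 26 of the 37, and for 12663 symbols in all.

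Cells of a murine leukaemia line driven by the MLL-AF9 fusion, taken after tertiary transplantation, were transduced with 1 of 2 short hairpin RNAs against Syncrip or with a control hairpin. KD1 (shRNA-1), KD2 (shRNA-2) and control had 3 libraries each, all collected on day 4, and all 9 carry the fusion. The sample labels call the control hairpin scrambled and the design text calls it luciferase. Each library comes from its own transduction. The labels do not say that the transduced cells came from separate animals, so p-values measure the spread between transductions, which may be technical. In such bulk RNA, fewer cells in a given state and less RNA per cell cannot be told apart.

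Kinesins are ATP-driven motors that walk along microtubules or take their ends apart. The mitotic members build the spindle, move and align chromosomes and complete cytokinesis, and their mRNAs peak late in the cell cycle. The transport members carry vesicles, endosomes, mitochondria and mRNA through the interphase cell. The ciliary members serve the assembly, length and signalling of cilia.

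Libraries held 9559638 to 19483923 counts, of which 5686 to 26244 fell on kinesins. Syncrip, the targeted gene, was at 15.9 to 20.1 CPM (counts scaled to a common library size with TMM factors) in KD1 and 46.3 to 63.2 CPM in KD2 libraries, against 207 to 241 CPM in control libraries. Ribosomal RNA was counted as Gm26924 and the mitochondrial mt-Rnr1 and mt-Rnr2. Together they took 15.4% ± 3.69 of the counts in KD1, 10.7% ± 4.84 in KD2 and 6.97% ± 1.92 in control libraries (mean ± SD, n = 3 each). Of the myeloid leukaemia genes Ptprc, Itgam, Spi1, Cebpa, Hoxa9 and Meis1, all 6 passed the filter. Together they ran from 1026 to 1085 CPM in KD1, 1180 to 1356 CPM in KD2 and 1206 to 1317 CPM in control libraries. With KD1, 4 of the 6 fell, where 17.3% of all tested genes fell. With KD2, 2 fell and 1, Itgam, rose, where 24.2% fell and 24.4% rose. The homeobox genes Hoxa9 and Meis1 were called lower with both hairpins. Ptprc (-0.66 ± 0.14, edgeR adjusted p = 0.00363) and Cebpa (-0.47 ± 0.13, 0.014) were called lower with KD1 alone. Hoxa9 averaged 272 ± 8.38 CPM in KD1, 147 ± 7.03 CPM in KD2 and 399 ± 35.9 CPM in control libraries, and Meis1 56.2 ± 1.18, 56.1 ± 5.51 and 72.5 ± 2.59 CPM in KD1, KD2 and control libraries. The Meis1 calls were lost without several single libraries (highest edgeR adjusted p = 0.0821 with KD1 and 0.0672 with KD2). In a fit adjusted for the log2 ribosomal RNA share the KD1 calls of both were lost, with Hoxa9 at -0.39 and Meis1 at -0.23 (edgeR adjusted p = 0.121 and 0.347). Of 5 tested maturation markers, 1 rose with KD1, and 1 fell and 4 rose with KD2. The granule enzyme gene Mpo was the KD1 rise and the KD2 fall, at 526 ± 43.3 CPM in KD1, 8.64 ± 3.61 CPM in KD2 and 21.1 ± 6.17 CPM in control libraries, while Itgam, Csf1r, Emr1 and C1qb rose with KD2 and were not called with KD1. The 3 B cell markers summed to at most 0.0923 CPM in any library, with Cd79a at 0 throughout. The 3 T cell markers reached at most 0.0773 CPM with Cd3g at 0. Fibroblast markers summed to 0.0923 to 0.307 CPM in KD1, 1.16 to 1.595 CPM in KD2 and 0.101 to 0.531 CPM in control libraries, with Col3a1 and Pdgfra at 0 and Col1a1 called higher with KD2. Endothelial markers summed to 0 to 0.768 CPM in KD1, 1.62 to 3.91 CPM in KD2 and 0.203 to 0.597 CPM in control libraries, with Tek at 0 and Kdr called higher with KD2. Their part in the KD2 results was not tested.

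Most of the tested mitotic kinesins were called lower with KD1, and nearly all of them with KD2. With KD1, 8 of the 12 tested mitotic kinesins fell and none rose, where 17.3% of all tested genes fell and 17.4% rose in edgeR's quasi-likelihood test at an adjusted p under 0.05. With KD2, 11 of 12 fell and none rose, where 24.2% of all tested genes fell and 24.4% rose. Rises among them also numbered 0 at an unadjusted p under 0.05, in DESeq2 and in limma-voom, for each hairpin. The median log2 fold change of the 12 was -0.64 with KD1 and -1.11 with KD2, beside 0.023 and 0.0043 over all tested genes. In a fit adjusted for the log2 ribosomal RNA share, 1 of the 12 was called lower with KD1 and 9 with KD2, with medians of -0.27 and -0.92. All KD1 libraries had a higher share than all controls, so that share and the KD1 hairpin cannot be told apart. Kif11, Kif14, Kif15, Kif20b, Kif22, Kif23 and Kif4 fell with both hairpins, which share their control libraries. Over all tested genes, 9.57% fell with both and 9.24% rose with both. The libraries of KD1 did not overlap the controls for 9 of the 12, all lower, where 25.8% of all tested genes lay apart lower and 26.8% higher. Those of KD2 did not overlap for 9 of the 12, all lower, where 28.1% lay apart lower and 27.3% higher.

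Kif15 and Kif11 are the pair of motors that can separate the spindle poles. Kif15, at 122951046 to 123018733 on chromosome 9 (mm10), crosslinks spindle fibres and can stand in for Kif11. It was at 43.6, 40.01 and 35.6 CPM in KD1 libraries, 24.8, 9.90 and 15.4 CPM in KD2 libraries and 94.2, 90.5 and 114 CPM in control libraries. The 3 groups did not overlap, with KD2 lowest and control highest. The level was 2.51-fold lower with KD1 (log2 fold change -1.33 ± 0.25, SE) and 5.93-fold lower with KD2 (-2.57 ± 0.26), with edgeR adjusted p = 0.00206 and 1.45e-05. Kif11, also called Eg5 (chromosome 19, 37376403 to 37421859), slides antiparallel microtubules apart. Its level was 45.2, 47.2 and 42.6 CPM in KD1, 42.3, 20.2 and 29.6 CPM in KD2 and 70.3, 65.8 and 76.0 CPM in control libraries. All knockdown libraries lay under all controls, and KD2 replicate 1 came close to the lowest KD1 library. Kif11 changed by -0.65 ± 0.21 with KD1 (edgeR adjusted p = 0.0286) and by -1.20 ± 0.21 with KD2 (0.000586).

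The chromokinesins Kif4 and Kif22 bind chromosome arms and push them toward the spindle equator. Kif4 was at 8.24, 9.45 and 7.94 CPM in KD1, 9.39, 5.41 and 9.98 CPM in KD2 and 15.3, 20.3 and 21.6 CPM in control libraries. All knockdown libraries lay under all controls, and KD1 lay within the KD2 range. Its log2 fold changes were -1.15 ± 0.22 and -1.20 ± 0.22 for KD1 and KD2 (edgeR adjusted p = 0.00251 and 0.000855). Kif22 was at 53.0, 46.3 and 42.3 CPM in KD1, 37.8, 30.5 and 32.2 CPM in KD2 and 62.3, 66.0 and 75.8 CPM in control libraries, again with no overlap between any 2 groups. It changed by -0.53 ± 0.14 with KD1 and by -1.02 ± 0.14 with KD2 (edgeR adjusted p = 0.0111 and 0.000101).

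The motors of cytokinesis also fell. Kif20b, which acts late in abscission (chromosome 19, 34922361 to 34975745), had the largest KD1 change of any tested kinesin. It was at 16.7, 19.4 and 16.5 CPM in KD1, 25.3, 8.66 and 22.7 CPM in KD2 and 46.9, 53.0 and 72.4 CPM in control libraries. Its level was 3.27-fold lower with KD1 (-1.71 ± 0.31) and 3.03-fold lower with KD2 (-1.60 ± 0.30), with edgeR adjusted p = 0.00173 and 0.0011. Kif14, which recruits citron kinase to the midbody, was at 26.1, 23.5 and 17.9 CPM in KD1, 23.9, 12.2 and 15.2 CPM in KD2 and 49.0, 40.6 and 42.7 CPM in control libraries. It changed by -0.97 ± 0.22 and -1.36 ± 0.22 (edgeR adjusted p = 0.00588 and 0.000382). Kif23, the motor of the centralspindlin complex (chromosome 9, 61915905 to 61946774), was at 51.3, 46.5 and 43.9 CPM in KD1, 50.6, 32.9 and 42.0 CPM in KD2 and 71.9, 73.8 and 77.1 CPM in control libraries. All knockdown libraries again lay under all controls. Kif23 changed by -0.65 ± 0.15 and -0.83 ± 0.15 (edgeR adjusted p = 0.00614 and 0.000782). Kif20a, which brings the chromosomal passenger complex to the midzone, was at 39.8, 31.7 and 26.02 CPM in KD1, 47.1, 21.6 and 27.3 CPM in KD2 and 52.1, 53.6 and 44.4 CPM in control libraries. KD1 lay under the controls and 1 KD2 library lay among them, and the value was -0.62 ± 0.25 with KD1 (edgeR adjusted p = 0.0701) and -0.64 ± 0.25 with KD2 (0.0476). The KD1 value passed under 7 of the 20 alternatives.

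Motors that shorten or cap microtubule ends parted between the hairpins. Kif18a dampens chromosome oscillation at the metaphase plate. It was at 16.1, 15.1 and 14.9 CPM in KD1, 10.001, 7.35 and 10.5 CPM in KD2 and 15.6, 17.5 and 17.9 CPM in control libraries. Its relative Kif18b, which limits astral microtubules, was at 6.59, 10.5 and 7.38 CPM in KD1, 4.54, 3.09 and 3.10 CPM in KD2 and 6.69, 9.28 and 9.99 CPM in control libraries. For both genes KD1 overlapped the controls and KD2 lay under them. Kif18a stood at -0.14 ± 0.15 with KD1 (edgeR adjusted p = 0.497) and fell by 0.87 with KD2 (0.000714), and Kif18b stood at -0.07 ± 0.24 (0.837) and fell by 1.26 (0.00137). Kif2c, the centromeric depolymerase MCAK, was at 20.2, 22.2 and 23.3 CPM in KD1, 19.3, 13.8 and 15.4 CPM in KD2 and 19.1, 23.6 and 22.6 CPM in control libraries. It stood at 0.01 ± 0.15 with KD1 (edgeR adjusted p = 0.969) and fell by 0.42 with KD2 (0.0354), the KD2 libraries reaching just into the control range.

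Kif2a, a depolymerase of spindle poles that neurons also use, was the 1 tested mitotic kinesin called with KD1 and not with KD2. It was at 32.0, 37.0 and 44.6 CPM in KD1, 44.3, 50.04 and 67.7 CPM in KD2 and 60.3, 58.9 and 57.4 CPM in control libraries. KD1 lay under the controls and KD2 on both sides of them. Kif2a fell by 0.64 with KD1 (SE 0.17, edgeR adjusted p = 0.0128) and stood at -0.12 ± 0.17 with KD2 (0.556). Without it, 7 of 11 mitotic kinesins fell with KD1 and 11 of 11 with KD2. Some calls rested on single libraries. With KD1, Kif11 was no longer called without any 1 of the 3 KD1 or 3 control libraries (highest edgeR adjusted p = 0.0998), Kif22 without KD1 replicate 3 or control replicate 3 (0.0579) and Kif2a without KD1 replicate 1 (0.0505). With KD2, Kif20a was lost without KD1 replicate 2, KD2 replicate 2, KD2 replicate 3 or any 1 control library (0.152), and Kif2c without KD1 replicate 2, KD2 replicate 2, KD2 replicate 3, control replicate 2 or control replicate 3 (0.131). The plot of mitotic kinesins by library shows these groups.

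**Figure D1:**
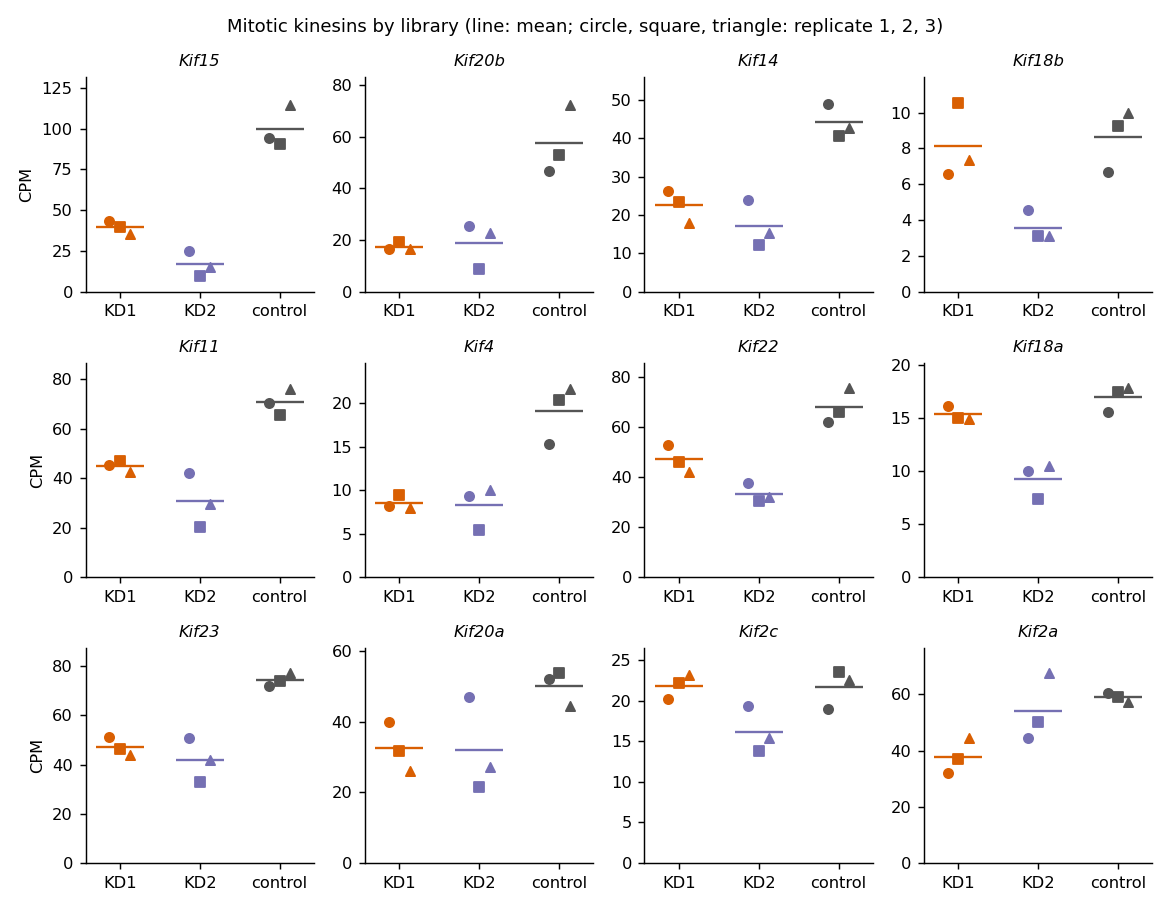
Level of each of the 12 tested mitotic kinesins in CPM (vertical axes, from 0) in the KD1, KD2 and control libraries; points are libraries (circle, square and triangle for replicates 1, 2 and 3) and lines are group means. Kif15 separates all 3 groups, Kif18a and Kif18b are low only in the KD2 libraries plotted here, and Kif2a is low in the KD1 libraries.

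Promoter windows of mitotic and other kinesins were read with the changes of these genes already known. RefSeq windows (GRCm38.p6, 250 bases before to 50 after the gene's start) were at hand for 21 of the 26 tested kinesins, 11 of them mitotic. Each was searched on both strands for TTTGAA, the core of the cell cycle genes homology region (CHR) that many late cell cycle genes carry, and for the CCAAT box. TTTGAA occurred in 9 of the 11 mitotic kinesins and in 0 of the 10 others, beside 14.3% of 8585 tested genes with a window and 20.2% of all 27025 genes with one. CCAAT occurred in 6 of the 11 mitotic and 4 of the 10 other kinesins, beside 43.4% of those tested genes, and both motifs in 6 of the 11 and 0 of the 10, beside 5.98%. The tested kinesins without a window were Kif13b, Kif19a, Kif20a, Kif21b and Kif5b. No match of one motif overlapped a match of the other in these windows. The mitotic members without TTTGAA were Kif18a and Kif2a. Whether the motif bears on the changes with either hairpin was not tested. The RefSeq starts on which the windows of Kif14, Kif2c and Kif17 are set lie 1.51, 3.87 and 11.8 kilobases inside the gene as GENCODE annotates it. Without these genes, TTTGAA occurred in 7 of 9 mitotic and 0 of 9 other kinesins, and CCAAT in 5 of 9 and 4 of 9. Kif11 carries TTTGAA on the opposite strand 19 bases before the start and Kif23 on the coding strand 2 bases after it. Kif15 holds it at 19 bases before the start on the opposite strand and again at 234 bases before it on the coding strand. A match of these letters is not a measured site, and a window without them says nothing on the factors that bind there. The windows of Kif11 (chr19:37376132-37376431, plus strand), Kif15 (chr9:122950831-122951130, plus strand), Kif23 (chr9:61946750-61947049, minus strand) and, as one without either motif, Kif18a (chr2:109280488-109280787, plus strand) are shown 5′ to 3′ on the gene's strand. Capitals mark TTTGAA and CCAAT or their reverse complements TTCAAA and ATTGG.
Kif11: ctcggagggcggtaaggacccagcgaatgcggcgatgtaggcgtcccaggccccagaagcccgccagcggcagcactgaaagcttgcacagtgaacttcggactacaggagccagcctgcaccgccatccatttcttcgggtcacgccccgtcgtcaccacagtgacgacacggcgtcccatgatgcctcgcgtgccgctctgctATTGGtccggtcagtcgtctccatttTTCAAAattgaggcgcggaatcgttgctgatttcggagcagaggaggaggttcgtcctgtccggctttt
Kif15: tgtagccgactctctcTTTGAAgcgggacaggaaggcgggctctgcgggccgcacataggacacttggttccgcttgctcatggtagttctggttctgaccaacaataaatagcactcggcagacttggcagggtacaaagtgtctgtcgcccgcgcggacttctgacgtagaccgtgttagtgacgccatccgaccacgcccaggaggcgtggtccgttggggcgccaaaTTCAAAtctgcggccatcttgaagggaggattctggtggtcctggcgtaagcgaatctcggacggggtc
Kif23: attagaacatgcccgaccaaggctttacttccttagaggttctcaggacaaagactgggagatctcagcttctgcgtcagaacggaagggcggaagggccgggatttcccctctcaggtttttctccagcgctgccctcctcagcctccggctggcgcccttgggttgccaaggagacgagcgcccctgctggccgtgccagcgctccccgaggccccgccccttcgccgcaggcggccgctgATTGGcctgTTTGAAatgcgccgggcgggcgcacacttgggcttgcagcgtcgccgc
Kif18a: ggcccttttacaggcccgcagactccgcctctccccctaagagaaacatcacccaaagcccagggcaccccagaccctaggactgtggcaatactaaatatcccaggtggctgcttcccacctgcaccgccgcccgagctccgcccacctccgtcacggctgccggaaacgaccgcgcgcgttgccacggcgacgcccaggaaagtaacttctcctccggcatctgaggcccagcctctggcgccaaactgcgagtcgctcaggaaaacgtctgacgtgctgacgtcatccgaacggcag

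Transport kinesins fell in part. With KD1, 5 of 8 tested members fell, and with KD2 3 of 8, Kif16b, Kif21b and Kif5b with both, where 17.3%, 24.2% and 9.57% of all tested genes fell. Rises numbered 0 with each hairpin in edgeR, also at an unadjusted p under 0.05, in DESeq2 and in limma-voom. The median log2 fold change of the 8 was -0.73 with KD1 and -0.30 with KD2. Kif5b, the ubiquitous heavy chain of conventional kinesin (chromosome 18, 6201002 to 6242174), was at 79.4, 83.1 and 86.0 CPM in KD1, 144, 62.3 and 139.9 CPM in KD2 and 186, 185 and 218 CPM in control libraries. All knockdown libraries lay under the controls, and KD2 replicate 2 was well under the other KD2 libraries. Kif5b changed by -1.25 ± 0.25 with KD1 (edgeR adjusted p = 0.00288) and by -0.77 ± 0.24 with KD2 (0.0213), a call lost without control replicate 3 (0.0838). In a fit adjusted for the log2 ribosomal RNA share, it stood at -0.61 with KD1 and -0.52 with KD2, and both calls were lost (edgeR adjusted p = 0.19 and 0.0629). No transport kinesin was called lower with KD1 in that fit. Kif21b, a processive motor that also slows microtubule growth (chromosome 1, 136131389 to 136177998), was at 17.7, 19.9 and 18.4 CPM in KD1, 16.3, 8.51 and 12.8 CPM in KD2 and 31.8, 42.7 and 50.2 CPM in control libraries. It changed by -1.15 ± 0.22 and -1.72 ± 0.22, a 3.30-fold lower level with KD2 (edgeR adjusted p = 0.00224 and 7.6e-05).

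The endosome and vesicle carriers differed among themselves. Kif16b, a carrier of early endosomes, was at 4.72, 5.76 and 5.26 CPM in KD1, 3.50, 2.01 and 4.45 CPM in KD2 and 7.96, 9.35 and 8.36 CPM in control libraries. The 3 groups did not overlap, and Kif16b changed by -0.70 ± 0.24 (edgeR adjusted p = 0.043) and -1.35 ± 0.25 (0.000844). Its KD1 call was lost without any 1 of the 3 KD1 or 3 control libraries (highest edgeR adjusted p = 0.125). Kif13a, a carrier between the trans-Golgi network and endosomes, was at 21.6, 20.04 and 20.02 CPM in KD1, 42.1, 16.0 and 29.3 CPM in KD2 and 39.4, 44.9 and 54.7 CPM in control libraries. It fell by 1.17 with KD1 (edgeR adjusted p = 0.00618) and stood at -0.67 ± 0.26 with KD2 (0.0517), where the KD2 libraries ranged from far below the controls to among them. The KD2 value passed under 8 of the 20 alternatives, DESeq2 and limma-voom among them (lowest adjusted p = 0.000849, in edgeR with no filter on low counts). Kif1c, a carrier of vesicles and mRNA (chromosome 11, 70700548 to 70731964), was at 9.44, 11.7 and 13.3 CPM in KD1, 28.8, 19.1 and 24.0 CPM in KD2 and 17.5, 20.4 and 20.96 CPM in control libraries. It fell by 0.77 with KD1 (edgeR adjusted p = 0.0067) and stood at 0.29 ± 0.17 with KD2 (0.18). Kif1b, a carrier of mitochondria and vesicle precursors, stood at -0.27 ± 0.14 and 0.07 ± 0.14 (edgeR adjusted p = 0.149 and 0.713), with 98.2 to 110.1 CPM in KD1, 115 to 155 CPM in KD2 and 110.01 to 134 CPM in control libraries. Kif13b and Kif3c lay between 0.405 and 2.83 CPM in every library and were not called.

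With 6 tested members, the counts of calls among ciliary kinesins lay near the shares of all tested genes. Of 6 tested members, 1 fell with KD1, where 17.3% of all tested genes fell, and 2 fell and 1 rose with KD2, where 24.2% fell and 24.4% rose. Their medians were -0.69 with KD1, with 5 of 6 values under 0, and -0.01 with KD2. Rises with KD1 numbered 0 in edgeR, also at an unadjusted p under 0.05, in DESeq2 and in limma-voom. Kif17, a homodimeric motor of cilia and dendrites (chromosome 4, 138250435 to 138301967), was at 1.21, 1.08 and 0.923 CPM in KD1, 1.23, 0.773 and 1.35 CPM in KD2 and 2.48, 2.85 and 3.05 CPM in control libraries, and fell with both hairpins (-1.39 ± 0.29 and -1.31 ± 0.28, edgeR adjusted p = 0.00391 and 0.00213). Kif24, a centriolar depolymerase that keeps cycling cells from growing a cilium, was at 4.39, 3.46 and 2.95 CPM in KD1, 2.39, 1.70 and 1.15 CPM in KD2 and 4.11, 3.38 and 3.49 CPM in control libraries. KD1 spanned the control range and KD2 lay under it. Kif24 stood at -0.03 ± 0.27 with KD1 (edgeR adjusted p = 0.94) and fell by 1.06 with KD2 (0.00849). Kif9, a gene of motile cilia (chromosome 9, 110476958 to 110525179), was the one tested kinesin that rose. It was at 0.439, 0.154 and 0.277 CPM in KD1, 1.60, 1.08 and 1.69 CPM in KD2 and 0.355, 0.796 and 0.619 CPM in control libraries, so its values rest on few reads. It rose by 1.32 ± 0.38 with KD2 (edgeR adjusted p = 0.0132) and stood at -1.05 ± 0.53 with KD1 (0.144), and its KD2 call was lost without KD2 replicate 3 or control replicate 1 (highest 0.0533). Of 6 ciliated cell markers, 5 were among the symbols, with Dnah5 at 0. They summed to 0.879 to 1.20 CPM in KD1, 2.94 to 3.62 CPM in KD2 and 0.963 to 1.81 CPM in control libraries. Rsph1, the 1 of them that passed the filter, averaged 3.01 ± 0.14 CPM in KD2 and 1.32 ± 0.38 CPM in control libraries. It was called higher with KD2 (1.18 ± 0.27, edgeR adjusted p = 0.00379) and not called with KD1. The part of these markers in the Kif9 value was not tested.

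Kif3a and Kif3b together drive intraflagellar transport and also carry cargo in cells without cilia. Kif3a was at 5.16, 7.76 and 8.49 CPM in KD1, 10.6, 8.74 and 15.0 CPM in KD2 and 10.1, 9.81 and 10.9 CPM in control libraries, and it was not called with KD1 (-0.52 ± 0.23, edgeR adjusted p = 0.0997) or KD2 (0.16 ± 0.22, 0.572). Kif3b stood at 0.09 ± 0.17 and 0.16 ± 0.17 (edgeR adjusted p = 0.704 and 0.447), and Kif19a, a regulator of cilium length, at -0.86 ± 0.34 and -0.17 ± 0.30 (0.0662 and 0.663).

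**Figure D2:**
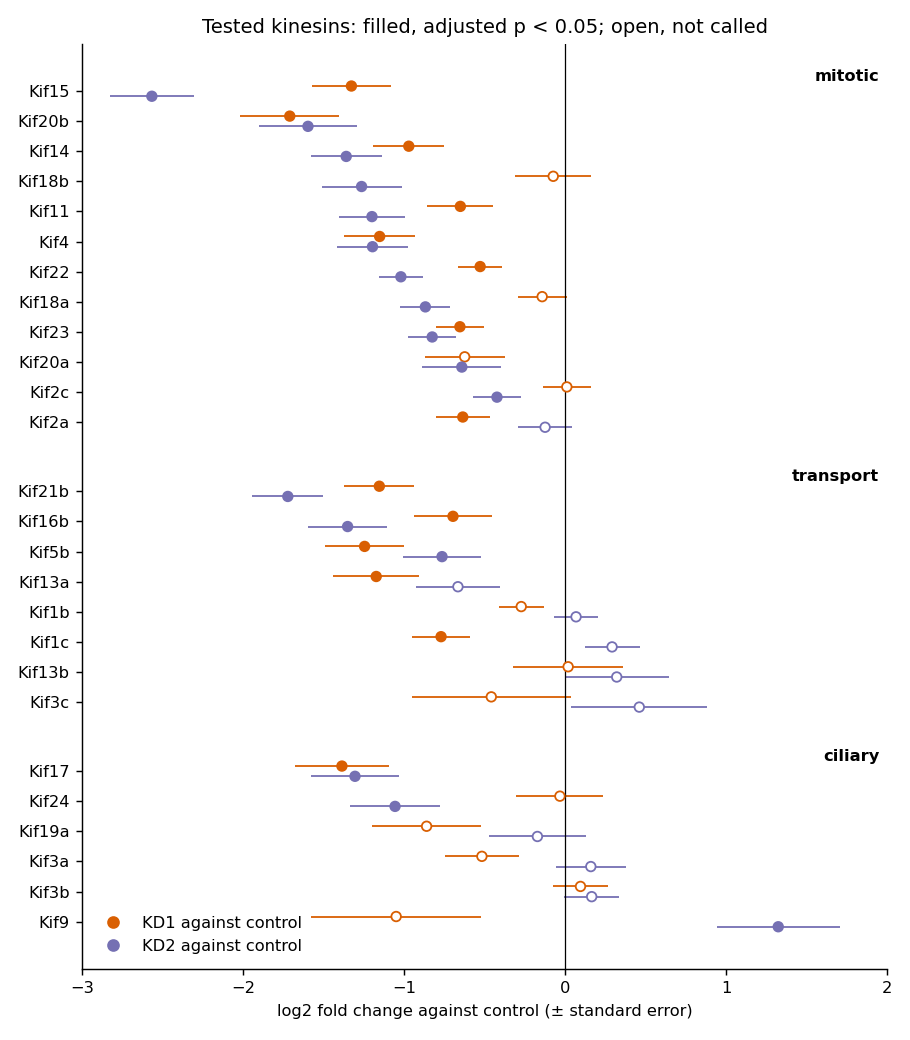
Log2 fold change against control (horizontal axis, ± standard error) of the 26 tested kinesins for KD1 and KD2, grouped into mitotic, transport and ciliary members; filled points passed edgeR's test at an adjusted p under 0.05 and open points did not. The KD2 points of the mitotic members lie left of 0 with 11 of 12 filled, while those of the other members spread from -1.72 to 1.32.

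The remaining 11 members fell under the filter. Kif12, Kif27, Kif2b and Kif6 were listed at 0 in all 9 libraries. Kif5c, Kif26a and Kif26b had 0 to 14 counts per group of 3 libraries, and Kif1a and Kif5a 4 to 15. Kif21a had 10, 13 and 43 counts and Kif7, a regulator of hedgehog signalling at the cilium tip, had 1, 29 and 19 counts in KD1, KD2 and control libraries. Of the 26 tested kinesins, 14 fell with KD1 and 16 with KD2, where 17.3% and 24.2% of all tested genes fell. Of these kinesin falls, 7 and 11 were at least 2-fold. Kif9 was the only rise, with KD2. Neighbouring genes share exons with Kif1c (Mir6925), Kif3c (1110002L01Rik), Kif18a (Mettl15), Kif2a (Dimt1), Kif4 (Pdzd11), Kif20a (Cdc23), Kif17 (Sh2d5), Kif22 (Gm31749) and Kif5b (Gm17036), and since the strand setting of the counting is not given, their reads cannot be told apart there. The pseudogenes Kif22-ps and Kif4-ps held 40 and 4 counts over the 9 libraries.

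Levels set by length placed conventional kinesin and the chromokinesin Kif22 first in control cells. Divided by the longest annotated transcript, Kif5b had 32.6 and Kif22 32.2 CPM per kilobase in control libraries, followed by Kif23 at 21.9, Kif15 at 20.5 and Kif11 at 14.7. The first strand was primed with oligo-dT, so reads need not cover a transcript evenly and the order is approximate. Summed over all members, kinesins reached 623 ± 6.53 CPM in KD1, 642 ± 142 CPM in KD2 and 1070.0 ± 82.7 CPM in control libraries (mean ± SD, n = 3 each).

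The sums split differently between mitotic and other members. The mitotic kinesins summed to 359, 349 and 323 CPM in KD1, 339, 216 and 291 CPM in KD2 and 564, 573 and 632 CPM in control libraries. All other kinesins summed to 266, 279.9 and 293 CPM in KD1, 399, 263 and 417 CPM in KD2 and 434, 479 and 528 CPM in control libraries. Kif5b and Kif1b, the largest of these, weigh most in that sum. Kif5b averaged 82.8 CPM in KD1, 116 CPM in KD2 and 197 CPM in control libraries, and Kif1b 103, 130 and 124 CPM. The mitotic share of kinesin counts, which needs no scaling between libraries, was 55.1% ± 2.53 in KD1, 44.0% ± 2.58 in KD2 and 55.1% ± 1.16 in control libraries (mean ± SD, n = 3 each). The KD2 shares, 41.1% to 46.0%, lay under all KD1 shares (52.5% to 57.5%) and all control shares (54.5% to 56.5%), and the KD1 shares spanned the control range. The median log2 fold change of the 14 other tested kinesins was -0.73 with KD1 and -0.05 with KD2, so that the mitotic median minus that of the others was 0.09 for KD1 and -1.06 for KD2. Leaving out any 1 library kept this difference between 0.02 and 0.33 for KD1 and between -1.22 and -0.89 for KD2. It is a description of members chosen with results known, and no test was made of it.

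**Figure D3:**
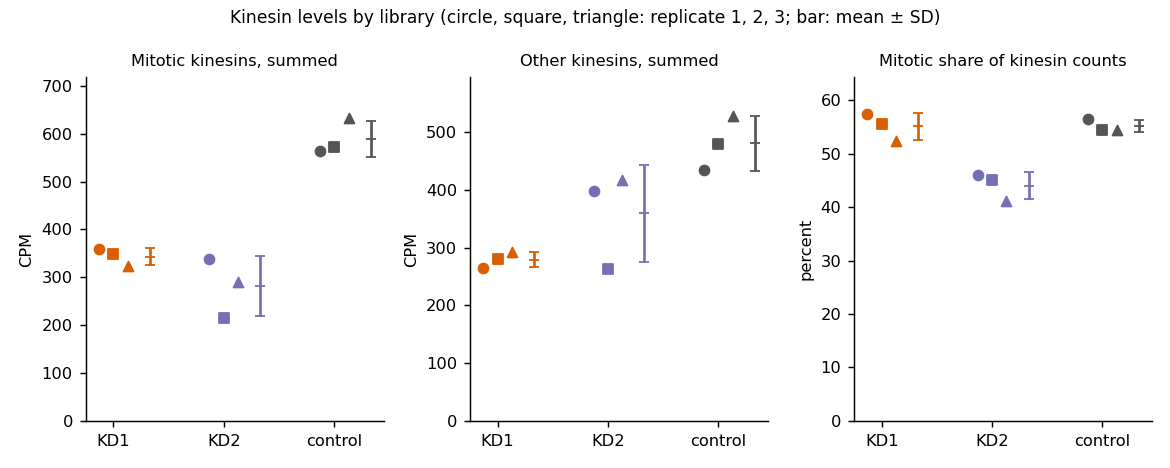
Summed level of mitotic kinesins and of all other kinesins in CPM, and the mitotic share of kinesin counts in percent, by library for KD1, KD2 and control; points are libraries and bars are mean ± SD (n = 3). Mitotic sums are under the controls with each hairpin, and the mitotic share is 41.1% to 46.0% in KD2 libraries, 52.5% to 57.5% in KD1 and 54.5% to 56.5% in control libraries.

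Set against each other in the same fit, the hairpins differed for 10 of 26 kinesins, near the shares of all tested genes. With KD1 relative to KD2, 6 were higher and 4 lower, where 19.7% of all tested genes were higher and 21.3% lower. The libraries of KD1 and KD2 did not overlap for 9 kinesins higher in KD1 and 5 lower, where 25.5% and 24.3% of all tested genes lay apart. The 6 higher in KD1 were Kif15, Kif18b, Kif24, Kif18a, Kif22 and Kif2c, of which Kif24 alone is not among the mitotic members. Kif15 differed by 1.24 ± 0.25, Kif18b by 1.19 ± 0.25, Kif24 by 1.02 ± 0.29 and Kif18a by 0.73 ± 0.16 (log2, edgeR adjusted p = 0.0024, 0.00302, 0.0149 and 0.00338). Kif22 differed by 0.49 ± 0.14 (edgeR adjusted p = 0.0132) and Kif2c by 0.43 ± 0.15 (0.0398). The 4 lower in KD1 were Kif9 (-2.37 ± 0.48, edgeR adjusted p = 0.0022), Kif1c (-1.06 ± 0.18, 0.000687), Kif3a (-0.68 ± 0.23, 0.0336) and Kif2a (-0.51 ± 0.17, 0.0294). Kif20b, Kif4 and Kif20a, which stood at similar values with each hairpin, differed by -0.11 ± 0.31, 0.04 ± 0.23 and 0.02 ± 0.25 (edgeR adjusted p = 0.801, 0.899 and 0.965). Without KD1 replicate 1 the count higher in KD1 was 3, and without KD2 replicate 1 it was 9. Without KD2 replicate 2 the count lower in KD1 was 8. Kif22 and Kif24 were lost without KD1 replicate 1 or KD2 replicate 3 (highest edgeR adjusted p = 0.0618 for each), and Kif2a and Kif3a without KD1 replicate 1, KD1 replicate 2 or KD2 replicate 3 (0.139 and 0.16). Kif2c was lost without any 1 KD1 library, KD2 replicate 2, KD2 replicate 3, control replicate 2 or control replicate 3 (0.117).

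**Figure D4:**
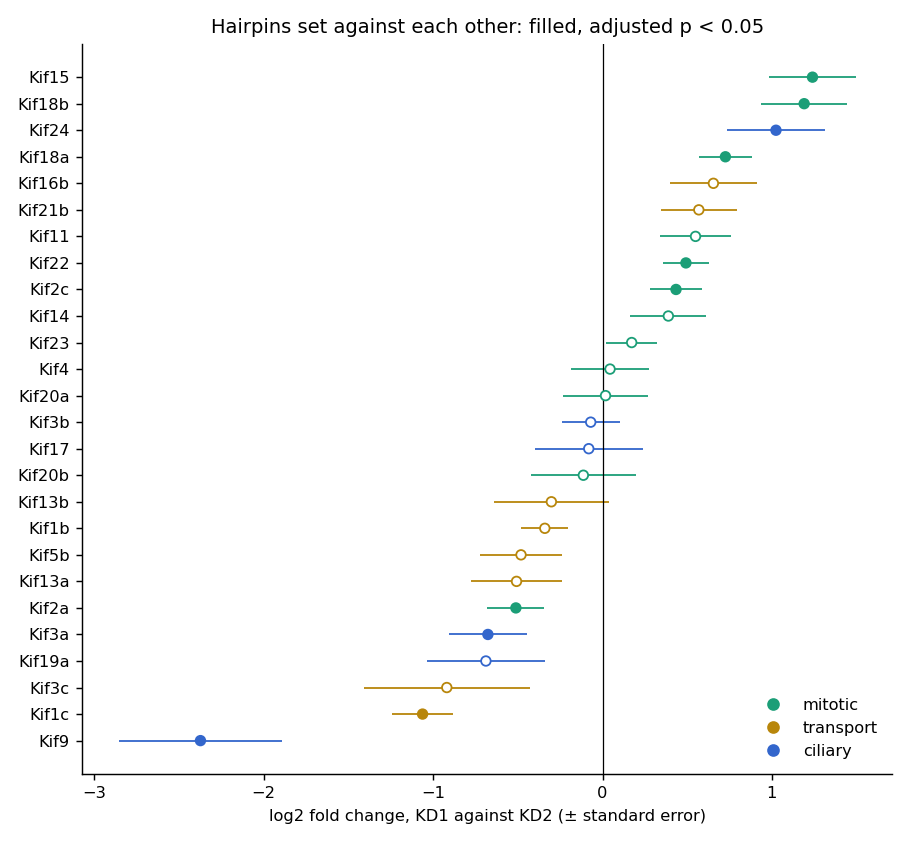
Log2 fold change of KD1 against KD2 (horizontal axis, ± standard error) for the 26 tested kinesins, coloured by class and sorted by value; filled points passed edgeR's test at an adjusted p under 0.05. Kif15 and Kif18b stand at the high end, at 1.24 and 1.19, and Kif9 at the low end, at -2.37.

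In KD1 and in KD2, the library with the highest ribosomal RNA share had the lowest mitotic kinesin sum of its group. In the controls it did not. Control replicate 2 had the highest share, 8.29%, with a sum of 573 CPM, and control replicate 1, at 7.86%, the lowest sum, 564 CPM. Control replicate 3 had the lowest share, 4.77%, and the highest sum, 632 CPM. In KD1, replicate 3 had the highest ribosomal RNA share, 19.3%, and the lowest value of its group for 9 of the 12 mitotic kinesins, where 34.4% of all tested genes had their lowest KD1 value. Over all 26 tested kinesins it was lowest for 12, as was KD1 replicate 1. In KD2, replicate 2 had the highest share, 15.8%, and the lowest value for 11 of the 12 and for 20 of all 26 tested kinesins, where 34.2% of all tested genes had their lowest KD2 value in that library. With the log2 share as a covariate, the falls numbered 1 with KD1, Kif2a (-0.85, edgeR adjusted p = 0.0467), and 13 with KD2. The 13 KD1 calls lost there had an edgeR adjusted p from 0.123 (Kif20b) to 0.943 (Kif11), with Kif15 at -0.52 (0.131). The shares were 11.98% to 19.3% in KD1 against 4.77% to 8.29% in control libraries. KD2 replicate 1, whose share of 6.10% lay within the control range, had 339 CPM of mitotic kinesins against 564 to 632 CPM in the controls. Without KD2 replicate 2 the mitotic median with KD2 was -0.97 and 14 kinesins were called lower.

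**Figure D5:**
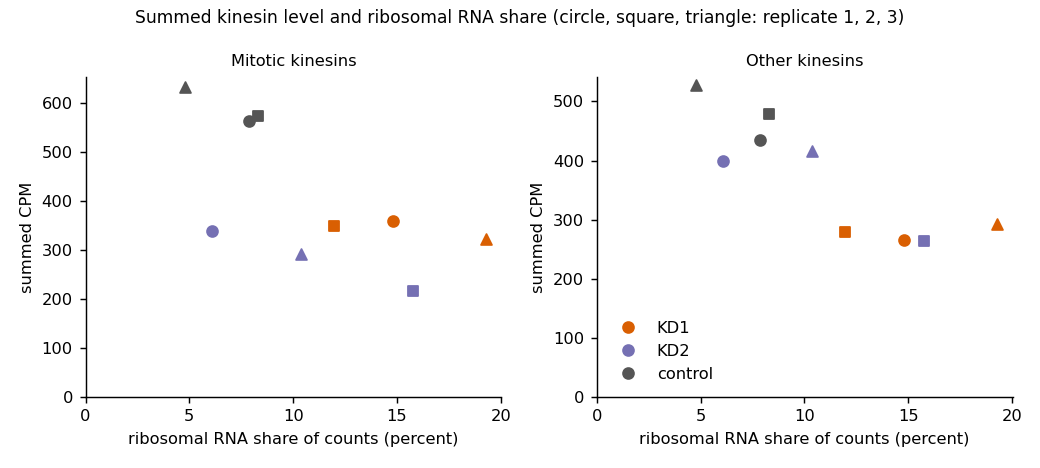
Summed CPM of mitotic kinesins and of all other kinesins (vertical axes, from 0) against the ribosomal RNA share of counts in percent (horizontal axes) for the 9 libraries, coloured by group. The KD1 libraries lie at 11.98% to 19.3% and the controls at 4.77% to 8.29%, with KD2 from 6.10% to 15.8%.

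Genes that work with kinesins were counted in lists chosen with the earlier results known, to be read against 17.3% of all tested genes lower and 17.4% higher with KD1 and 24.2% lower and 24.4% higher with KD2. Cenpe, a kinetochore kinesin named outside the Kif symbols, was at 21.3 ± 0.563 CPM in KD1, 34.2 ± 20.7 CPM in KD2 and 119 ± 25.3 CPM in control libraries (mean ± SD, n = 3 each). It changed by -2.49 ± 0.38 and -1.80 ± 0.36 (edgeR adjusted p = 0.000774 and 0.00156). Of the 4 tested motors named outside the Kif symbols, 1 fell with KD1 and 3 with KD2. Of 29 spindle and midzone partners, 9 fell with KD1 and 21 fell and 1 rose with KD2, with medians of -0.22 and -0.62, and 1 of the 29, Kifc1, is also among those 4 motors. Prc1, the bundling protein that Kif4 brings to the midzone, was at 107 ± 14.1 CPM in KD1, 43.1 ± 8.39 CPM in KD2 and 160.4 ± 10.7 CPM in control libraries. Prc1 changed by -0.59 ± 0.15 and -1.89 ± 0.16 (edgeR adjusted p = 0.012 and 4.01e-06), its KD1 call lost without KD1 replicate 3 (0.0555). Aspm, a spindle pole protein, changed by -0.98 ± 0.19 and -1.39 ± 0.19 (edgeR adjusted p = 0.00226 and 0.000104). Of 6 proliferation markers, 2 fell and 1 rose with KD1 and 4 fell with KD2, with medians of -0.08 and -1.03. The KD1 rise was Cdk1 (0.54 ± 0.16, edgeR adjusted p = 0.0211). Pcna, Mcm2 and Ccnb1 stood at 0.17, -0.24 and 0.09 with KD1 and were not called. Mki67 changed by -2.10 ± 0.34 and -1.43 ± 0.32 (edgeR adjusted p = 0.000985 and 0.0033) and Top2a by -1.14 ± 0.18 and -2.28 ± 0.19 (0.000909 and 3.68e-06). In a fit adjusted for the log2 ribosomal RNA share, the KD1 calls of Prc1 (-0.18), Aspm (-0.63) and Mki67 (-1.30) were lost (edgeR adjusted p = 0.489, 0.116 and 0.0639). Cenpe at -1.35 and Top2a at -0.64 kept theirs (0.0327 and 0.0413). The summed level of the 6 proliferation markers was 1326 to 1499 CPM in KD1, 713 to 886 CPM in KD2 and 1849 to 1973 CPM in control libraries. Top2a, the largest of them in control libraries, averaged 460 CPM in KD1, 209 CPM in KD2 and 1014 CPM in control libraries. Cdk1 averaged 476, 268 and 328 CPM in KD1, KD2 and control libraries, so the sum does not speak for each marker. The part of these partners and markers in the kinesin values was not tested.

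The partners of the transport and ciliary motors were counted against the same shares. Of 14 tested light chains and adaptors, 6 fell and 2 rose with KD1 and 1 fell and 2 rose with KD2. The 2 that rose with both were Arl8b and Arl8a, small GTPases that link lysosomes to kinesin. Arl8b changed by 0.59 ± 0.13 and 0.54 ± 0.13 (edgeR adjusted p = 0.00525 and 0.00517). Arl8a changed by 1.37 ± 0.36 and 1.34 ± 0.35 (edgeR adjusted p = 0.0117 and 0.00832), its KD1 call lost without control replicate 3 (0.0564). Of 23 tested dynein and dynactin genes, which form the motor of the opposite direction, 6 fell and 1 rose with KD1 and 2 fell and 3 rose with KD2, with Dynlrb1 higher with both (0.98 ± 0.15 and 1.01 ± 0.15, edgeR adjusted p = 0.000764 and 0.000185). Of 20 tested intraflagellar transport genes, 4 fell and 3 rose with KD1 and 2 fell and 11 rose with KD2, with medians of -0.03 and 0.59. Ift57 and Ift140 fell with both, by 0.52 and 0.78 with KD1 and by 0.54 and 1.13 with KD2. Ttc30b and Ttc30a1, close copies of each other whose reads are uncertain, rose with both, by 1.24 and 0.89 with KD1 and by 1.63 and 0.72 with KD2. Single libraries decided the KD1 calls of Ift140, Ttc30b and Ttc30a1 (highest edgeR adjusted p = 0.0966, 0.0778 and 0.0777) and the KD2 call of Ttc30a1 (0.139). Of 12 tested tubulins, the track that the motors walk on, 1 fell and 2 rose with KD1 and 4 fell and 2 rose with KD2, Tuba1a rising with both (0.88 ± 0.22 and 1.40 ± 0.22, edgeR adjusted p = 0.00971 and 0.000315). In a fit adjusted for the log2 ribosomal RNA share, the KD1 calls of Arl8b (0.30), Ift57 (-0.44), Ift140 (-0.62) and Tuba1a (0.54) were lost (edgeR adjusted p = 0.211, 0.132, 0.276 and 0.267).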

How the data were processed

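Total RNA of 9 transductions was reverse-transcribed with an oligo-dT primer and the second strand made with random decamers, per the labels' protocols. The values the authors deposited are raw read counts per gene symbol. STAR 2.3.0e, HTSeq 0.6.0 and the mm10 build are named in the submitters' processing notes, which name neither an annotation release nor a strand setting. Entries were summed by symbol (39179 entries, 38926 symbols), and no kinesin symbol had several entries. Genes were filtered with filterByExpr (12663 kept), scaled by TMM and tested with edgeR 4.0.16's quasi-likelihood test on the group over all 9 libraries. Benjamini-Hochberg adjustment ran over all tested genes with a threshold of 0.05, and ± after a log2 fold change is its standard error. The common biological coefficient of variation was 0.165, and the steps were tested on simulated data. Members, classes, lists and tests were chosen with earlier results of these data known. Every tested mitotic kinesin and every other kinesin called in some comparison is described by library, and of each list up to the 2 largest falls and 2 largest rises called with both hairpins were named, besides Syncrip. Marker genes at 0, the markers called with KD2 (Col1a1, Kdr and Rsph1), the KD1 falls of Ptprc and Cebpa and the maturation markers were named after their values were seen. So were the proliferation markers Cdk1, Pcna, Mcm2 and Ccnb1. Alternatives were DESeq2 1.42.0, limma-voom (limma 3.58.1), other scalings and filters, the replicate block, 2-group fits, a ribosomal RNA covariate (Gm26924, mt-Rnr1 and mt-Rnr2, the first taken as ribosomal from general knowledge) and each library left out. Trends with transcript length and GC content (GENCODE M21, also used for positions) were removed in fits chosen after seeing the data.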

Additional observations from a re-analysis of the deposited data

How the results depend on the processing

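Kinesins called lower numbered 14 with KD1, 16 with KD2 and 4 for KD1 against KD2, and kinesins called higher 0, 1 and 6. With the ribosomal RNA covariate, 1 was lower with KD1 and 11 were higher in KD1 than KD2. Without a filter on low counts, 2 were higher with KD2 and 7 lower in KD1 than KD2, and with a filter of 5 CPM none (0) was higher with KD2, Kif9 not being tested. With only the 2 groups compared, 2 were lower in KD1 than KD2. With the transcript length trend removed, 2 were higher with KD2 and 10 higher in KD1 than KD2. The cause was not tested. Leaving out single libraries, where 27 or 28 kinesins passed the filter, gave 11 to 16 lower and 0 higher with KD1, 13 to 17 lower and 0 to 3 higher with KD2, and 3 to 8 lower and 3 to 9 higher in KD1 than KD2. The lowest higher count, 3, came without KD1 replicate 1, and the largest lower count, 8, without KD2 replicate 2, which also gave 3 higher with KD2. Higher with KD2 fell to 0 without KD2 replicate 3 or control replicate 1. Scaling to total counts moved the median of all genes to -0.23 with KD1 and -0.21 with KD2, with 18 and 17 kinesins lower. With the replicate number as a block, the counts lower were 15, 17 and 5 and the counts higher 0, 1 and 7. The numbers were not used as pairs, since correlations of deviations between equal numbers were not all over 0.1: they ran from -0.13 to 0.34 with 7 of 9 above 0, against -0.42 to 0.29 with 5 of 18 above 0 between different numbers. In 13 of 18 cases a library correlated best with its own number in another group, a hint of pairing from the data and not from the design. The median difference between mitotic and other kinesins ranged from -0.06 to 0.15 with KD1 from -1.13 to -0.81 with KD2 and from 0.74 to 0.89 for KD1 against KD2 in the alternatives that keep all libraries. Of the named kinesins' values, 1132 stayed on their side of the threshold, 75 lost and 43 gained a call, and none (0) of those called changed sign. Tested kinesins that averaged under 3 CPM in each group, Kif9, Kif17, Kif19a, Kif13b and Kif3c, rest on few reads.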
